A study of Homo sapiens with 6 samples.

Results

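The 31 genes described here carry out DNA replication or the G1/S transition, and they were chosen by gene symbol. All 31 were found among the 17318 genes of each library, and all 31 had a mean of at least 1 FPKM (fragments counted per gene, divided by transcript length and by library size), so none was lost to the filter on low values. The study used SNU216, an established human gastric cancer cell line, in 2 groups of 3 libraries. Both groups were transfected for 48 h, one with a control siRNA (siControl) and the other with siRNA that targets OXTR, the gene of the oxytocin receptor (siOXTR), and the study's title concerns this receptor and the co-activator YAP in gastric cancer. Neither the origin of a group's libraries from separate cultures nor the make-up of siOXTR (1 siRNA or a pool) is stated in the labels. P-values then measure only the spread from library to library, which may be technical.

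Replication starts when a cell licenses its origins in G1. The origin recognition complex, CDC6 and CDT1 load the ring-shaped MCM2 to MCM7 helicase onto DNA, and at the start of S phase CDC45 and the GINS complex join it to form the active helicase. Cyclin E with its kinase drives this step, and the E2F transcription factors switch on most of the genes involved, including many of the replication factors and the enzymes that make deoxynucleotides. Their transcripts are commonly read as a sign of cells in late G1 and S phase. RNA from a culture cannot tell fewer cells in that phase from less RNA per cell.

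OXTR was at 39.1 ± 0.257 FPKM in siControl against 4.92 ± 0.371 FPKM in siOXTR (SD, n = 3 each), so the target followed the labels. All 7 epithelial and gastric line markers reached a mean of 1 FPKM, with KRT8 (keratin 8) at 2877 FPKM in siControl, although CDH1 (E-cadherin) was at 76.1 FPKM in siControl against 20.0 FPKM in siOXTR, and EPCAM and CLDN4 were lower too. Their part in the results below was not tested. None of 12 fibroblast, blood and endothelial markers reached a mean of 1 FPKM over the 6 libraries, and their summed level was 3.94 to 4.88 FPKM in siControl and 2.96 to 4.11 FPKM in siOXTR. Over the tested genes, r was 0.995 to 0.998 between libraries of the same group and 0.974 to 0.976 across groups. All FPKM of a library summed to 417829 to 434167 in siControl and to 446246 to 459595 in siOXTR, so the scale of the deposited values itself differed between the groups. Each result below is given as deposited and, where the call differs, after TMM scaling (trimmed mean of M values), which shifted the median of all tested genes by -0.117 on the log2 scale.

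More of the 31 replication and G1/S genes fell than rose in siOXTR, and all changes were small. Of the 31 genes 10 fell, 3 rose and 18 did not pass the threshold (limma, Benjamini-Hochberg adjusted p under 0.05 over 11550 tested genes). Of all tested genes 59.8% passed, 42.2% higher and 17.6% lower, against which the 13 of 31 that passed, 9.68% higher and 32.3% lower, are to be read. Their median log2 fold change was -0.089, beside 0.13 for all tested genes. None of the 31 changed by 0.5 or more on the log2 scale, a size reached by 11.2% of tested genes. The siControl and siOXTR libraries did not overlap in 19 of the 31, beside 64.4% of tested genes. After TMM scaling 22 of the 31 were lower and 1 was higher, beside 24.6% and 18.9% of all tested genes, and the median was -0.21. As a share of all FPKM of the library, the 31 genes together held 0.429% to 0.439% in siControl and 0.387% to 0.392% in siOXTR, without overlap.

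**Figure D1:**
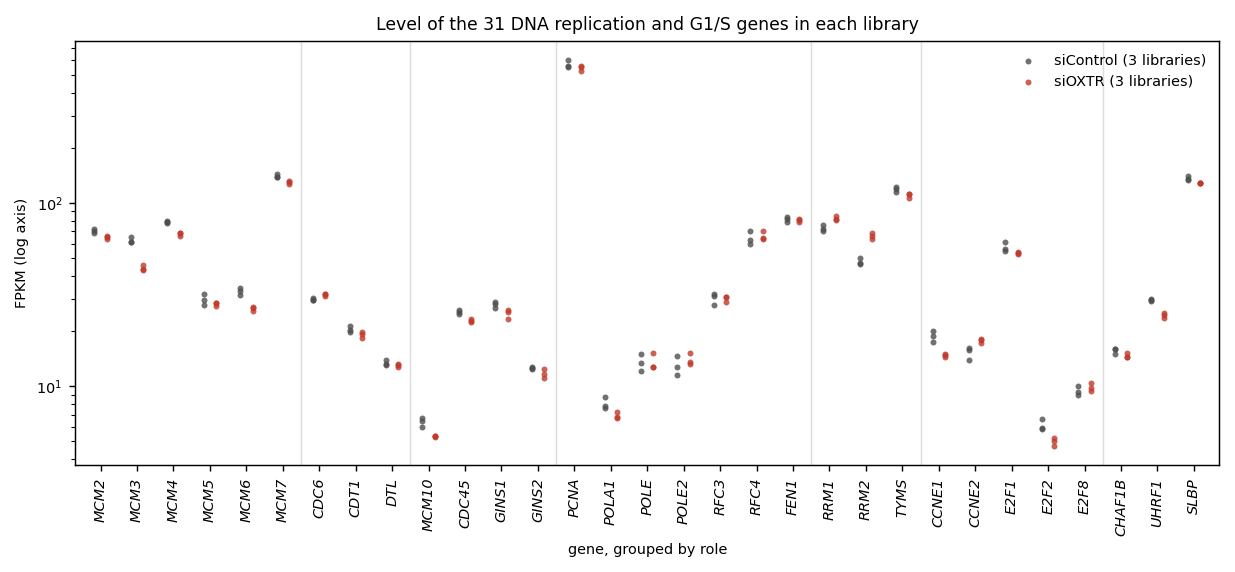
FPKM of each of the 31 genes (log axis) in the 3 siControl and 3 siOXTR libraries, with 1 point per library and vertical lines between roles. Levels span from E2F2 at 6.15 FPKM to PCNA at 571 FPKM in siControl, and for most genes the groups lie close together, with MCM3 and RRM2 the most separated.

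The levels themselves kept nearly the same order. PCNA, the sliding clamp that holds polymerases on DNA, was the most abundant at 571 ± 27.1 FPKM in siControl against 544 ± 16.9 FPKM in siOXTR. MCM7, SLBP and TYMS followed in both groups, at 140, 136 and 119 FPKM in siControl. MCM7 and SLBP were at 140 ± 2.98 and 136 ± 3.35 FPKM in siControl, so their order there lay within the spread. At the low end E2F2, MCM10 and POLA1 were at 6.15, 6.38 and 8.06 FPKM in siControl and held the same last 3 ranks in siOXTR. The largest move in rank was that of RRM2, which stood at rank 12 of 31 in siControl and rank 9 in siOXTR, together with MCM6, from rank 13 to rank 16.

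Within the MCM2 to MCM7 helicase, which unwinds the parental strands, the subunits did not change alike. MCM3, MCM6 and MCM4 fell, and the other 3 did not pass the threshold as deposited. MCM3 was at 61.06, 65.46 and 61.33 FPKM in siControl and at 43.16, 43.49 and 45.98 FPKM in siOXTR. Every siOXTR library was thus far below every siControl library, and MCM3 fell by 29.4% (log2 fold change -0.49, SE 0.053, adjusted p = 1.02e-05, limma), the largest fall of the 31. MCM6 was at 31.41, 33.14 and 34.33 FPKM in siControl and at 26.8, 25.72 and 27.11 FPKM in siOXTR, again without overlap, and fell by 19.5% (log2 fold change -0.30, SE 0.055, adjusted p = 0.000618). MCM4 was at 79.34, 77.31 and 78.45 FPKM against 68.72, 65.97 and 68.71 FPKM and fell by 13.5% (adjusted p = 0.00328). MCM2 (70.3 ± 1.48 and 64.8 ± 1.45 FPKM, adjusted p = 0.0587) and MCM7 (140 ± 2.98 and 130 ± 2.45 FPKM, adjusted p = 0.0861) did not overlap between groups but missed the threshold. MCM2 passed when siControl replicate 3 was left out (adjusted p = 0.0495). MCM5 was at 29.6 ± 2.04 and 28.1 ± 0.690 FPKM with overlapping groups. After TMM scaling all 6 subunits were lower, from -0.62 for MCM3 to -0.19 for MCM5 on the log2 scale.

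The subunits form a ring with 1 copy of each, and their transcripts were at unequal levels in both groups. MCM7 made up 33.8% ± 0.119 (SD, n = 3) of the summed FPKM of the 6 in siControl, and 36.2%, 36.2% and 35.5% in the 3 siOXTR libraries. MCM5 made up 7.15% ± 0.357 and 7.78% ± 0.177 in the same order. MCM3 went from 15.1% ± 0.304 to 12.2% ± 0.495. These shares do not depend on how a library was scaled, and the share of MCM3 moved most. As parts of 1 sum they are tied, so a lower share of MCM3 raises the others. Summed over the 6 subunits, the level was 407 to 423 FPKM in siControl and 358 to 366 FPKM in siOXTR.

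The promoters of MCM6 and MCM3 are shown because these 2 genes fell most within the helicase and because both carry the letters bound by E2F factors. Each runs 5′ to 3′ from 250 bases before the transcription start to 10 bases after it (RefSeq, GRCh38.p14). Capitals mark matches on either strand to an E2F motif (TTTCCCGC, TTTCGCGC, TTTGCCGC or TTTGGCGC) or to the CCAAT box (CCAAT), the letters bound by the factor NF-Y. The MCM6 promoter lies at chr2:135876434-135876693 on the minus strand, and the MCM3 promoter at chr6:52284733-52284992 on the minus strand.
MCM6: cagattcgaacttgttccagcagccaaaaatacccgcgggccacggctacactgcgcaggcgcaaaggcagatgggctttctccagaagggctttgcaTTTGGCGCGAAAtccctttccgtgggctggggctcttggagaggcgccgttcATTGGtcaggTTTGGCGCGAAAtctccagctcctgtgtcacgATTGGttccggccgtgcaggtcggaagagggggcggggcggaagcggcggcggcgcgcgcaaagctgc
MCM3: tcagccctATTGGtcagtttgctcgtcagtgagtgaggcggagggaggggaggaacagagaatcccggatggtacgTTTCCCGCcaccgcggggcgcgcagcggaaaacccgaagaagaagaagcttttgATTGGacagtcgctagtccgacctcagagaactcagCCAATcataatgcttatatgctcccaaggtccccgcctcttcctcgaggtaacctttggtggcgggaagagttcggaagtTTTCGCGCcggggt
MCM6 has 4 E2F matches, which form 2 overlapping pairs on opposite strands, from -152 to -141 and from -90 to -79 relative to the start, and 2 CCAAT boxes. MCM3 has 2 E2F matches, one from -174 to -167 and one across the start from -4 to 4, and 3 CCAAT boxes. A match is a description of the letters and not of a bound site.

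The E2F letters were common in these promoters. RefSeq promoters of 300 bases (250 before and 50 after the start) were matched by Entrez number for 27 of the 31 genes, and 18 of the 27 (66.7%) held at least 1 E2F match, beside 3.31% of all 35116 promoters in the table and 6.93% of the 9511 tested genes with an entry. MCM4, MCM5, CCNE2 and E2F8 had no entry. A CCAAT box was in 16 of the 27 (59.3%), beside 34.6% of all promoters and 43.7% of the tested genes with an entry. By call, it was in 7 of the 9 that fell, both that rose and 7 of the 16 that did not pass. The E2F match was in 6 of the 9 genes with an entry that fell and in 12 of the 16 that did not pass, and in neither of the 2 that rose. Among the other 641 tested genes with an E2F match, 44.9% were higher and 13.9% lower, with a median log2 fold change of 0.15. That is close to the 42.2% and 17.6% of all tested genes and their median of 0.13. The 18 genes described here that hold the match had a median of -0.099, close to the -0.089 of all 31.

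Among the 31 genes, the licensing genes CDC6 and CDT1, and DTL, gave no call as deposited. The origin recognition complex lies outside the 31, and 4 of its 6 genes rose as deposited (given below). CDC6, the ATPase that loads the helicase, was at 30.23, 29.41 and 29.69 FPKM in siControl and at 31.14, 31.78 and 31.88 FPKM in siOXTR. The groups did not overlap, with siOXTR higher, but the difference was 6.12% (log2 fold change 0.083, 95% interval -0.025 to 0.19, adjusted p = 0.166), and its sign turned after TMM scaling (-0.043, adjusted p = 0.512). CDT1, which brings the helicase to the origin, was at 20.4 ± 0.797 and 19.2 ± 0.836 FPKM, and DTL, the substrate receptor that marks CDT1 for destruction in S phase, at 13.4 ± 0.483 and 13.1 ± 0.252 FPKM. Neither passed as deposited (adjusted p = 0.196 and 0.623, limma), and both were lower after TMM scaling (adjusted p = 0.00989 and 0.0427, limma).

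Of the 4 factors that activate the loaded helicase, 3 fell as deposited and all 4 were lower after TMM scaling. MCM10, which helps the 2 helicases of an origin to separate and start, was at 6.7, 6.43 and 6 FPKM in siControl and at 5.39, 5.26 and 5.36 FPKM in siOXTR. It fell by 16.3%, with all siOXTR libraries lowest (log2 fold change -0.22, SE 0.064, adjusted p = 0.0111). CDC45 fell by 10.0%, from 25.4 ± 0.611 to 22.9 ± 0.491 FPKM (adjusted p = 0.0292), and GINS1 fell by 10.9%, from 27.96, 26.67 and 28.98 FPKM to 23.15, 25.3 and 26.04 FPKM (adjusted p = 0.0353). Both calls lay close to the threshold, and each was lost on leaving out any 1 of 4 libraries, with the fold change still below 0. CDC45 missed the threshold without siControl replicate 3 and without any one of the siOXTR libraries (log2 fold changes from -0.16 to -0.13, adjusted p from 0.0585 to 0.104), and GINS1 without siControl replicate 1 or 3 or siOXTR replicate 1 or 2 (log2 fold changes from -0.18 to -0.11, adjusted p from 0.0669 to 0.167). GINS2 was at 12.6 ± 0.195 and 11.8 ± 0.680 FPKM with overlapping groups (adjusted p = 0.198 as deposited, and 0.0130 after TMM scaling, at -0.21 on the log2 scale).

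The other 2 GINS subunits, named after their values were seen, put these small changes in proportion. GINS4 was at 27.91, 26.88 and 26.95 FPKM in siControl and at 17.78, 17.37 and 16.97 FPKM in siOXTR and fell by 0.62 on the log2 scale (SE 0.052, adjusted p = 1.08e-06, limma). It was the largest fall among the replication genes outside the 31 and larger than any within them. GINS3 was at 5.00 ± 0.121 and 4.98 ± 0.302 FPKM (adjusted p = 0.960, limma). The 4 subunits of this complex thus differed in size of change, from -0.62 to -0.0043 on the log2 scale.

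Of the 7 genes of the polymerases, clamp, clamp loader and flap cutting, 1 fell as deposited and 3 were lower after TMM scaling. POLA1, the catalytic subunit of the polymerase that lays down primers, was at 8.76, 7.81 and 7.62 FPKM in siControl and at 6.84, 6.7 and 7.21 FPKM in siOXTR. It fell by 14.2% (log2 fold change -0.19, SE 0.068, adjusted p = 0.0264), and the call was lost without siControl replicate 1, siOXTR replicate 1 or siOXTR replicate 2 (adjusted p from 0.0688 to 0.0977). The other 3 genes of that complex, POLA2, PRIM1 and PRIM2, lay between -0.024 and 0.021 on the log2 scale and did not pass. PCNA had overlapping groups (log2 fold change -0.069, 95% interval -0.19 to 0.055), as did FEN1, the nuclease that trims Okazaki fragment flaps, at 81.6 ± 2.47 and 80.5 ± 1.46 FPKM. After TMM scaling both were lower, PCNA at -0.20 and FEN1 at -0.15 on the log2 scale (adjusted p = 0.0203 and 0.0361, limma). POLE, the catalytic subunit of the leading strand polymerase, ranged from 12.17 to 14.98 FPKM in siControl and from 12.78 to 15.26 FPKM in siOXTR, and its accessory subunit gene POLE2 from 11.54 to 14.66 and from 13.19 to 15.29 FPKM. Their intervals on the log2 scale ran from -0.17 to 0.19 and from -0.077 to 0.29, so changes of that size in either gene were not resolved here.

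RFC3 and RFC4 encode subunits of the clamp loader, which opens PCNA onto DNA. RFC3 was at 30.2 ± 2.15 and 30.1 ± 1.17 FPKM and RFC4 at 64.1 ± 5.19 and 66.2 ± 3.87 FPKM, with adjusted p of 0.980 and 0.549 (limma). Of the 5 subunits of the loader RFC5 alone passed as deposited, at 20.0 ± 1.28 FPKM in siControl against 14.4 ± 0.393 FPKM in siOXTR (a log2 fold change of -0.45, adjusted p = 7.01e-05, limma), while RFC1 and RFC2 were at -0.12 and 0.051 on the log2 scale. RFC1 was also lower after TMM scaling (-0.24, adjusted p = 0.00519, limma). In polymerase epsilon the 2 small histone-fold subunits outside the 31 rose, POLE3 from 33.1 ± 0.471 to 40.8 ± 1.17 FPKM and POLE4 from 6.68 ± 0.0709 to 9.11 ± 0.504 FPKM (adjusted p = 0.000453 and 0.000221, limma).

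**Figure D2:**
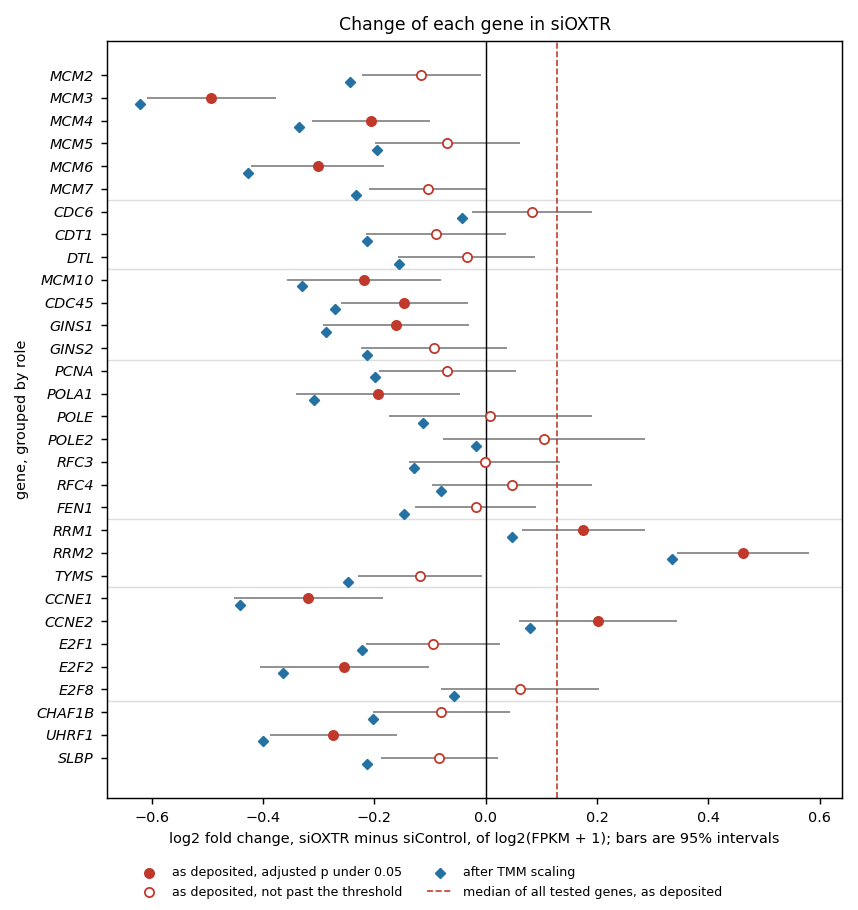
Log2 fold change of each gene (siOXTR minus siControl, on log2(FPKM + 1)) as deposited, with 95% intervals, and after TMM scaling (diamonds), grouped by role, with 3 libraries per group and the median of all tested genes as a dashed line. Filled circles mark the 13 genes past the threshold, RRM2 stands furthest to the right at 0.46 and MCM3 furthest to the left at -0.49, and TMM scaling moves every gene to the left.

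Of the 3 genes of deoxynucleotide supply, 2 rose as deposited, and RRM2 alone rose after TMM scaling. Ribonucleotide reductase is the enzyme that makes deoxynucleotides. RRM1 encodes its large subunit and RRM2 a small subunit, the one whose amount rises in S phase. RRM2B, the gene of another small subunit and outside the 31, rose as deposited (log2 fold change 0.22, adjusted p = 0.0212, limma). Its single value after TMM scaling is not given here. RRM2 was at 46.92, 46.29 and 50.19 FPKM in siControl and at 63.66, 66.04 and 68.91 FPKM in siOXTR. All siOXTR libraries stood above all siControl libraries, and RRM2 rose 1.39-fold (log2 fold change 0.46, SE 0.055, adjusted p = 2.25e-05). It was the one gene of the 31 that was also higher after TMM scaling (0.33, adjusted p = 0.000504). RRM1 was at 72.55, 70.52 and 75.87 FPKM in siControl and at 81.24, 81.84 and 84.45 FPKM in siOXTR and rose 1.13-fold (adjusted p = 0.0108). That call was lost without siOXTR replicate 3 (adjusted p = 0.0515) and after TMM scaling (log2 fold change 0.047, adjusted p = 0.501). TYMS, thymidylate synthase, was at 119 ± 3.99 and 110 ± 2.88 FPKM (adjusted p = 0.0630), lower in siOXTR without overlap, and passed when siControl replicate 1 was left out (adjusted p = 0.0407). After TMM scaling TYMS was lower (-0.25 on the log2 scale, adjusted p = 0.00266, limma).

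The promoters of RRM2 and RRM1 are shown in the same way, because these 2 genes rose and neither held an E2F match. RRM2 is at chr2:10122489-10122748 and RRM1 at chr11:4094435-4094694, both on the plus strand (RefSeq, GRCh38.p14), with capitals for the CCAAT box.
RRM2: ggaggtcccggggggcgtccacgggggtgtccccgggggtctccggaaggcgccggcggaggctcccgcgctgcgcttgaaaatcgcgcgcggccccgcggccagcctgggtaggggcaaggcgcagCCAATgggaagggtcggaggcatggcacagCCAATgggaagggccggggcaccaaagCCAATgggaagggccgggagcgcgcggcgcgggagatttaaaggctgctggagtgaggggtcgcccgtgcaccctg
RRM1: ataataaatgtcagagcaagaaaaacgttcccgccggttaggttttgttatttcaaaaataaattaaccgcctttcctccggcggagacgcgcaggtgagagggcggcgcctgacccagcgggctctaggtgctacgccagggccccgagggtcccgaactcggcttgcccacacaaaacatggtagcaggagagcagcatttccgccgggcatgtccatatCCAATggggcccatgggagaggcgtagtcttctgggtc
RRM2 has 3 CCAAT boxes on the plus strand, first bases at -123, -93 and -66, and RRM1 has 1 at -28. RRM2 has another listed start, whose promoter holds 1 CCAAT box and no E2F match. The absence of the searched letters says only that they are not in these windows.

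The 2 cyclin E genes moved in opposite directions. Cyclin E activates CDK2 at the G1/S transition. CCNE1 was at 17.46, 20.09 and 18.71 FPKM in siControl and at 14.49, 15.09 and 14.87 FPKM in siOXTR, without overlap, and fell by 21.0% (log2 fold change -0.32, SE 0.062, adjusted p = 0.000932). CCNE2 was at 15.82, 13.87 and 16.26 FPKM in siControl and at 18.04, 17.82 and 17.32 FPKM in siOXTR and rose 1.16-fold (log2 fold change 0.20, SE 0.065, adjusted p = 0.0184). The rise of CCNE2 was not called after TMM scaling (0.079, adjusted p = 0.348), nor without siControl replicate 2, siOXTR replicate 1 or siOXTR replicate 2 (adjusted p from 0.0560 to 0.0574). CCNE1 was the higher of the pair in every siControl library and CCNE2 in every siOXTR library.

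Among the E2F factors, E2F2, an activator, was at 5.95, 6.66 and 5.83 FPKM in siControl and at 5.24, 5 and 4.73 FPKM in siOXTR and fell by 18.8% (log2 fold change -0.25, SE 0.070, adjusted p = 0.00790). E2F1, the more abundant activator, was at 56.04, 61.29 and 54.69 FPKM in siControl and at 53.5, 54.37 and 52.9 FPKM in siOXTR. Its siOXTR libraries were all lower, but the nearest values of the groups, 54.69 and 54.37 FPKM, almost touched (adjusted p = 0.158, and 0.00706 after TMM scaling, limma). E2F8, an atypical repressor that acts later in S phase, was at 9.43 ± 0.548 and 9.88 ± 0.498 FPKM with overlapping groups.

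Of the genes that follow replication onto chromatin, UHRF1 alone passed as deposited. UHRF1 recognises hemimethylated DNA behind the fork and recruits the maintenance methyltransferase. It was at 29.54, 29.14 and 30.11 FPKM in siControl and at 23.44, 25.03 and 24.47 FPKM in siOXTR, and fell by 17.9% (log2 fold change -0.27, SE 0.052, adjusted p = 0.000880). CHAF1B, a subunit of the histone chaperone CAF-1, was at 15.6 ± 0.597 and 14.7 ± 0.412 FPKM (adjusted p = 0.240 as deposited, and 0.0110 after TMM scaling, at -0.20 on the log2 scale, limma). Its partner CHAF1A, outside the 31, fell from 22.3 ± 1.18 to 19.3 ± 0.546 FPKM (adjusted p = 0.0112, limma). SLBP, which binds the stem-loop of replication-dependent histone mRNAs, was at 133.29, 134.78 and 139.69 FPKM in siControl and at 127.8, 128.2 and 128.7 FPKM in siOXTR. The groups did not overlap, but the difference of -5.66% missed the threshold (adjusted p = 0.156, and 0.00538 after TMM scaling, limma).

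Ratios between genes within 1 library do not depend on scaling, and 16 of them were compared. In 10 the groups did not overlap, each with an exact permutation p of 0.1 (two-sided), which is the smallest that 3 libraries against 3 can give, and an adjusted p of 0.16 over the 16. The share among other pairs of genes was not computed, and of single tested genes 64.4% did not overlap. The ratio of CCNE2 to CCNE1 differed most, with a geometric mean of 0.816 in siControl and a difference of 0.55 on the log2 scale, so that it lay below 1 in each siControl library and above 1 in each siOXTR library. RRM2 to RRM1 went from 0.655 to 0.802, and TYMS to RRM1 from 1.63 to 1.33, so the 3 nucleotide genes shifted against each other. MCM3 against the mean of the 6 helicase subunits differed by -0.28 on the log2 scale, MCM6 by -0.093, and MCM5, MCM7 and MCM2 by 0.15, 0.12 and 0.10. That mean includes each subunit itself, so these 6 ratios are tied and a fall of MCM3 raises the others. As deposited none of the 6 subunits rose. CDT1 to CDC6 went from 0.686 to 0.606 and E2F2 to E2F1 from 0.107 to 0.0930. The groups overlapped for MCM4 against the helicase mean, E2F8 to E2F1, MCM10 to CDC45, GINS2 to GINS1, POLE2 to POLE and RFC4 to RFC3, with exact permutation p from 0.2 to 0.8.

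**Figure D3:**
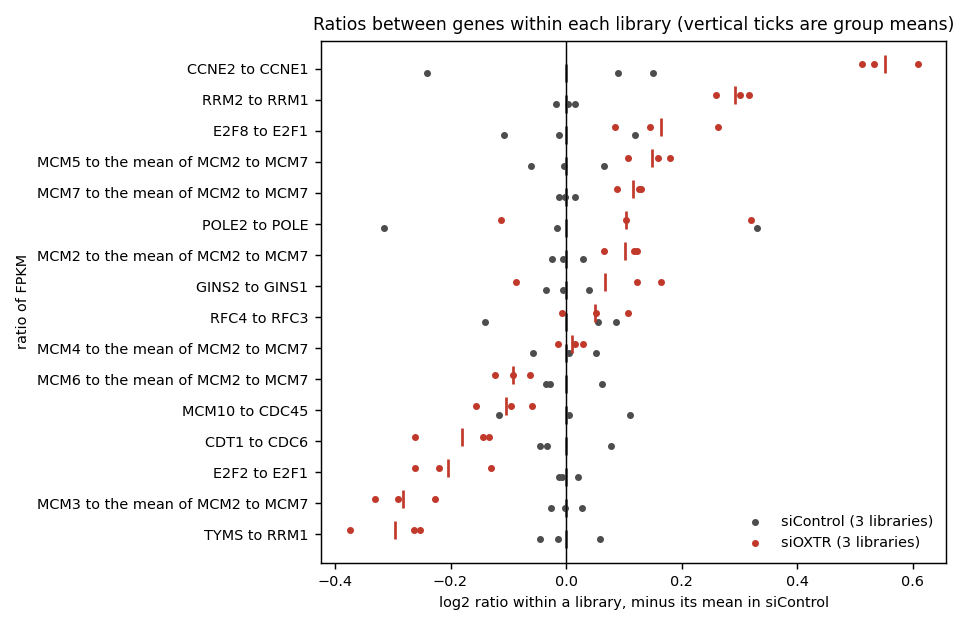
Log2 ratio of FPKM between 2 genes, or between an MCM subunit and the mean of all 6, in each library, with its siControl mean subtracted, so that 0 is the siControl mean; points are libraries and ticks are group means. The 3 siOXTR points stand apart from the 3 siControl points in 10 of the 16 ratios, most widely for CCNE2 to CCNE1.

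The other lists of cell cycle genes had positive medians as deposited, beside 0.13 for all tested genes. The medians of the further fork and origin, nucleotide and mitotic genes lay below that of all tested genes. After TMM scaling these medians were -0.044, -0.024 and -0.018, beside 0.012 for all tested genes. Of 51 further replication fork and origin genes 16 were higher (31.4%, beside 42.2% of all tested genes) and 5 lower (9.80%, beside 17.6%). Their median log2 fold change was 0.070. After TMM scaling 7 were higher and 12 lower, beside 18.9% and 24.6% of all tested genes. Leaving out siOXTR replicate 3 gave 10 higher, and leaving out siControl replicate 3 gave 8 lower. GINS4, RFC5, LIG1 (the ligase that joins Okazaki fragments, 23.4 ± 0.614 to 18.7 ± 0.976 FPKM) and CHAF1A fell most. POLD4, a small subunit of polymerase delta, rose from 25.0 ± 2.14 to 36.8 ± 0.972 FPKM, and MCM9, POLE4 and the histone chaperone gene ASF1A followed, at 0.46, 0.39 and 0.38 on the log2 scale. In the origin recognition complex ORC2, ORC3, ORC4 and ORC6 rose and none of the 6 fell, and of these 4 ORC4 alone was higher after TMM scaling (0.21, adjusted p = 0.0254, limma).

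Among 16 further nucleotide genes 7 were higher (43.8%, beside 42.2% of all tested genes) and 2 lower (12.5%, beside 17.6%). Their median was 0.10. After TMM scaling 1 was higher and 5 lower, beside 18.9% and 24.6% of all tested genes. The falls were those of TK1 (thymidine kinase 1, 105 ± 6.63 to 93.0 ± 4.27 FPKM) and PAICS, a purine synthesis enzyme gene (103 ± 5.35 to 90.1 ± 2.64 FPKM), and 1 of the 2 was lost without siControl replicate 2 or 3 or siOXTR replicate 2 or 3. SAMHD1, which breaks down deoxynucleotides, rose from 45.2 ± 1.04 to 55.8 ± 0.464 FPKM, and PPAT, UMPS and DTYMK also rose, by 0.28, 0.27 and 0.23 on the log2 scale. Of those 4, SAMHD1 alone passed after TMM scaling (adjusted p = 0.0149, limma).

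Of 30 tested regulators of G1/S outside the 31, 17 were higher (56.7%, beside 42.2% of all tested genes) and 3 lower (10%, beside 17.6%). Their median was 0.19. After TMM scaling 6 were higher and 4 lower, beside 18.9% and 24.6% of all tested genes. The 4 with the largest rise were E2F6 and 3 inhibitors of cyclin-dependent kinases. The inhibitor gene CDKN2D rose by 0.19 on the log2 scale as deposited, while CDKN2A and CDKN2C did not pass (0.14 and -0.090). Genes that promote S phase entry, among them CCNA2, SKP2 and CDC25A, also rose as deposited, by 0.22, 0.26 and 0.20. CDK2 did not pass (0.095). Besides E2F6, the genes E2F3, E2F4, E2F5 and E2F7 rose as deposited, by 0.20, 0.20, 0.25 and 0.20. The E2F partner gene TFDP1 rose by 0.18. These further genes were named after their values were seen, and their single values after TMM scaling are not given here. CDKN1A (p21) went from 25.3 ± 2.41 to 33.5 ± 1.32 FPKM, CDKN2B (p15) from 10.2 ± 0.287 to 13.6 ± 0.483 FPKM and CDKN1B (p27) from 24.2 ± 1.48 to 31.3 ± 0.911 FPKM, with adjusted p of 0.000440, 0.000169 and 0.000275 (limma). E2F6, a repressor of the E2F family, rose from 7.25 ± 0.390 to 10.4 ± 0.829 FPKM. All 4 remained higher after TMM scaling, at 0.23 to 0.35 on the log2 scale. CUL4B, a scaffold of the ligase that works with DTL, NPAT, the cyclin E substrate that turns on histone genes, and RBL1 (p107) fell by 0.23, 0.20 and 0.18 on the log2 scale. Other genes of that ligase went the other way. CUL4A and DDB1, named after their values were seen, rose as deposited, by 0.27 and 0.29.

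Mitotic genes, which peak later in the cycle, had a median of 0.11, beside 0.13 for all tested genes. Of 33 tested, 13 were higher (39.4%, beside 42.2% of all) and 1 lower (3.03%, beside 17.6%). After TMM scaling 2 were higher and 5 lower, beside 18.9% and 24.6% of all tested genes. The number higher was 8 without siOXTR replicate 2 and 6 without siOXTR replicate 3. AURKB, a kinase of the chromosomal passenger complex, rose from 64.6 ± 5.22 to 81.0 ± 3.91 FPKM and CCNB2 (cyclin B2) from 61.4 ± 3.77 to 75.8 ± 2.86 FPKM, and KIF23, a kinesin of cytokinesis, fell from 52.5 ± 3.62 to 46.5 ± 0.523 FPKM. Without siControl replicate 1, or without any one siOXTR library, none was lower. Of the 58 replication-dependent histone genes in each library, whose products package the new DNA, 24 reached a mean of 1 FPKM and were tested. Of those tested 23 were higher (95.8%, beside 42.2% of all tested genes) and none lower (beside 17.6%), with a median of 0.78. After TMM scaling 21 were higher and none lower, beside 18.9% and 24.6% of all tested genes. The filter used the mean of all 6 libraries, so a gene could pass it through its siOXTR values. Without the filter 25 of the histone genes were higher and none lower, though the number tested then is not given here. They have near-identical copies that may share reads and were low, with H4C8 at 1.27 ± 0.293 FPKM in siControl against 3.54 ± 0.889 FPKM in siOXTR, so single values are uncertain. SLBP did not pass as deposited (log2 fold change -0.083, 95% interval -0.19 to 0.023) and was lower after TMM scaling. Whether the difference in median between any 2 of these lists exceeds chance was not tested.

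**Figure D4:**
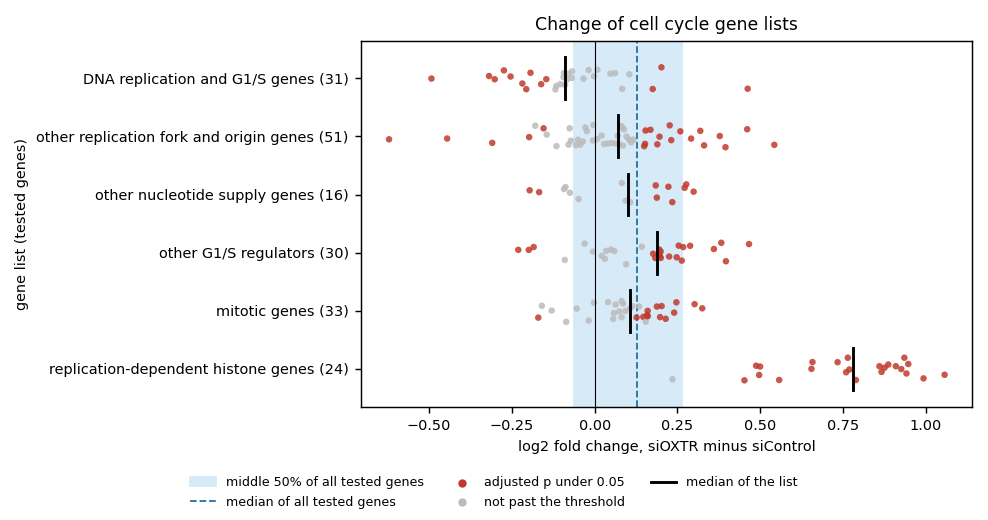
Log2 fold change (siOXTR minus siControl) of every tested gene in 6 cell cycle lists, 1 point per gene (red past the threshold), with the list median (black), the median of all tested genes (dashed) and the middle 50% of all tested genes (shaded, -0.064 to 0.26); vertical jitter has no meaning. The replication and G1/S genes have the lowest median, at -0.089, and the histone genes the highest, at 0.78.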

How the data were processed

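RNA of SNU216 cells was sequenced in 3 siControl and 3 siOXTR libraries, prepared by a BGISEQ-500 protocol from Trizol lysates, per the labels' protocols. The deposited values are FPKM, 1 per gene and library with 2 decimals, per the file headers. The genome build named in the submitters' processing notes is GRCh38.p13. Which aligner and quantifier made the values is not given in the sources used here. Depth is unknown: the low values of short single-transcript genes (GENCODE release 29 lengths) did not fall on the steps of whole fragments, with a coherence of 0.179 to 0.254 of a possible 1.

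For the 11550 of 17318 genes whose mean reached 1 FPKM, limma 3.58.1 (R 4.3.3) was fitted to log2(FPKM + 1) (group as the only term, trended robust variance, two-sided), with Benjamini-Hochberg adjustment over all tested genes and a threshold of 0.05. A fold change on this scale understates that of low genes. Values with ± are mean and SD of 3 libraries, and percent differences and folds are of mean FPKM. TMM scaling was computed on FPKM by a script (30% of M and 5% of A trimmed per side). The code was tested on simulated data. Pairs of libraries of a group shared at most 0.606% of values, so none was a copy of another, and each entered as 1 replicate. This does not show that they came from separate cultures. Libraries entered unpaired, and whether replicate numbers pair them could not be decided.

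The genes and the other lists were chosen with earlier results of these data known, so no list has a test. All 31 genes were named, and of each other list up to 4 genes past the threshold in each direction with the largest change. Other subunits of the same complexes, further G1/S regulators, the E2F and CCAAT searches and RFC1, RFC2 and GINS3 were added after values had been seen. Alternatives tried were TMM and TPM scaling, a pseudocount of 0.1, other filters, a plain variance prior, a replicate block and leaving out each library.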

Additional observations from a re-analysis of the deposited data

How the results depend on the processing

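Scaling decided more calls than any other choice. TMM scaling gave 22 of the 31 genes lower and 1 higher (median -0.21), and scaling each library to 1 sum (TPM) 18 and 1 (median -0.17), against 10 and 3 (median -0.089) as deposited. The same scalings turned 4869 of all tested genes higher into 2180 and 2954. RRM2 was higher and MCM3, MCM4, MCM6, MCM10, CDC45, GINS1, POLA1, CCNE1, E2F2 and UHRF1 were lower both as deposited and after TMM scaling (11 of the 13 calls). In each of the 6 fits that left out 1 library 8 of the 13 calls held, those of RRM2, MCM3, MCM4, MCM6, MCM10, CCNE1, E2F2 and UHRF1, and the counts ranged from 7 to 10 lower and from 2 to 3 higher. Without a filter on low values GINS1 was lost (adjusted p = 0.0610, limma), and the other filter, the pseudocount of 0.1 and the plain prior changed no call of the 31.

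Uncalled genes near 0 changed sign after TMM scaling, to -0.043 (CDC6), -0.056 (E2F8), -0.11 (POLE), -0.017 (POLE2) and -0.081 (RFC4), and after TPM scaling to -0.00046 (CDC6), -0.017 (E2F8), -0.072 (POLE) and -0.037 (RFC4). When 1 library was left out, FEN1 ranged from -0.042 to 0.000037, POLE from -0.071 to 0.079 and RFC3 from -0.060 to 0.033.

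For the other lists, TMM and TPM scaling gave 7 and 8 further fork and origin genes higher and 12 and 8 lower, 1 and 3 nucleotide genes higher and 5 and 4 lower, 6 and 6 G1/S regulators higher, and 2 and 3 mitotic genes higher and 5 and 4 lower. Of all tested genes TMM scaling gave 2180 higher and 2840 lower, and TPM scaling 2954 and 2433. Without a filter 1 nucleotide gene was lower and 25 histone genes were higher, and the numbers tested then are not given here. At a mean of at least 5 FPKM 11 histone genes were higher, because fewer were tested. Over the libraries left out, 10 to 16 fork and origin genes were higher and 4 to 8 lower, 1 to 2 nucleotide genes were lower, and 6 to 13 mitotic genes were higher and 0 to 2 lower. Apart from the changes of scale and of the genes tested, the cause was not tested.

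Whether the numbers in the labels pair the libraries could not be decided from 3 libraries per group. Same-numbered libraries deviated together with r = 0.107, 0.00421 and 0.160 (numbers 1, 2 and 3), and other pairs with r from -0.310 to 0.208. The siOXTR libraries 1 and 2 correlated best with another number, and siOXTR library 3 with its own. The replicate block gave the same 3 genes higher and 10 lower, with no call of the 31 changed, and 2 mitotic genes lower.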
